A study of Mus musculus with 12 samples.

Results

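The 10 genes examined mark the transitional, Krt8-high alveolar state: the keratins Krt8, Krt18, Krt19 and Krt7, the epithelial stress genes Cldn4, Sfn and Lgals3, and the p53 axis genes Cdkn1a, Trp53 and Mdm2. They were chosen by name, and the rows of their Ensembl identifiers were taken from the count table, which holds 55450 genes. All 10 members passed the filter on low counts and were among the 20612 genes tested. The libraries were made from type II alveolar epithelial (AT2) cells of 6- to 8-week-old C57BL/6 mice, which were plated on collagen I. The cells then received PBS or 50 µg/ml of an extract of cockroach (CRE), an allergen, for 24 h. The gene for the aryl hydrocarbon receptor (AhR) was floxed in both genotypes: AhR f/f mice had no Cre, and Sftpc-Cre;AhR f/f mice had Cre recombinase under the promoter of surfactant protein C. The labels name these genotypes WT and KO, and they are called control and knockout cells below. Control cells thus carry the floxed gene too, and the Sftpc promoter may not act in AT2 cells alone. Each of the 4 groups had 3 libraries. The labels do not say whether these came from separate mice, so p-values measure only the spread between these libraries.

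AT2 cells make surfactant and can give rise to the flat type I (AT1) cells of the gas exchange surface. On the way from AT2 to AT1 after injury, they pass through an intermediate state that is known for keratin 8, claudin 4, stratifin and galectin 3 and for active p53. Keratins of type II (Krt8, Krt7) pair with keratins of type I (Krt18, Krt19) into filaments, while the transcription factor p53 (Trp53) switches on the cell cycle inhibitor p21 (Cdkn1a) and its own ubiquitin ligase, Mdm2.

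The libraries held 68878065 to 80935797 counts each, of which the 10 members took 1.37% to 1.92%. The AT2 marker Sftpc was listed at 2772 to 5465 FPKM (fragments scaled to gene length and library depth). The secretoglobin Scgb1a1, a marker of airway club cells, stood above it at 7342 to 15747 FPKM, although another club cell gene, Scgb3a2, was at 2.13 to 3.77 FPKM. Summed FPKM over the whole marker list was 9002 to 14311 for the 7 club cell markers in control cells with PBS and 7440 to 11468 with CRE, and 9086 to 15814 and 7877 to 12980 in knockout cells. Per library, summed FPKM was 8.83 to 14.8 for the 7 basal cell markers, 49.0 to 97.2 for the 7 mesothelial markers and 23.6 to 162 for the 10 leukocyte markers. Several members are also expressed by these cell types, and the part of such cells in the results below was not tested.

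Ahr itself had 42.9, 43.8 and 45.1 CPM (counts scaled to library size with TMM factors) in control cells with PBS and 49.6, 40.2 and 45.7 CPM in knockout cells with PBS. A gene count takes in reads from exons that remain after Cre, so this does not check the deletion. Cyp1b1, a direct AhR target, lay between 344 and 465 CPM in the 6 control libraries and between 31.7 and 63.9 CPM in the 6 knockout libraries. It was lower by the edgeR quasi-likelihood test averaged over treatments (log2 fold change -3.14 ± 0.19 SE, Benjamini-Hochberg adjusted p = 2.36e-05), and the groups did not overlap.

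Most members were abundant in every group. Krt8 stood at rank 19 to 21 of the 20612 genes tested by mean FPKM in the 4 groups, Lgals3 at rank 21 to 31 and Krt18 at rank 31 to 41. The median over all tested genes was 2.16 FPKM, and 469 genes had a mean of at least 100 FPKM. By FPKM, a scale that divides by a length set for each gene, the order over all 12 libraries began with Krt8 (1666 ± 191 FPKM, SD, n = 12), Lgals3 (1299.6 ± 289 FPKM) and Krt18 (991 ± 127 FPKM). Krt19 (951 ± 98.1 FPKM), Sfn (734 ± 80.7 FPKM) and Cldn4 (642 ± 103 FPKM) followed. Cdkn1a (324 ± 54.5 FPKM) and Krt7 (319.9 ± 35.8 FPKM) lay lower, and Mdm2 (30.01 ± 5.50 FPKM) and Trp53 (29.7 ± 2.41 FPKM) were lowest. The ranges of neighbours in this order overlapped, except that every library's Cldn4 lay above every library's Cdkn1a and every Krt7 above every Mdm2. The FPKM of both type II keratins over that of both type I keratins was 0.976 to 1.07 in the 12 libraries. The FPKM of Krt7, its place in the order and this ratio depend on the length used for the gene. The annotated exons of Krt7 cover 7049 bases, against 1958 for Krt8, 1437 for Krt18 and 1855 for Krt19. By CPM, which is not scaled to gene length, Krt7 (1902 to 2958 CPM) lay above Krt18 (1146 to 1854 CPM).

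Krt8 (chr15:101996698-102004482, minus strand, GRCm38) and Krt18 (chr15:102028180-102032027, plus strand) are neighbours, 23697 bases apart. Krt7 lies on the same chromosome (chr15:101411043-101430313, plus strand), and Krt19 on chromosome 11 (chr11:100140810-100148665, minus strand). Krt8, Krt7 and Cdkn1a share 101, 77 and 273 exonic bases with genes on the opposite strand that had at most 271 counts in a library. The pseudogene Krt8-ps had 645 to 1039 counts and Trp53-ps 48 to 161. Reads from these copies may have been split with their parent genes, so Krt8 and Trp53 counts carry that uncertainty.

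CRE was compared with PBS first, to ask how the allergen changes these genes in AT2 cells. Krt8, the type II keratin that names the state, had 3101, 4271 and 3948 CPM in control cells with PBS and 2652, 3555 and 3472 CPM with CRE. In knockout cells it had 3992, 3702 and 3849 CPM with PBS and 3784, 3549.8 and 3731 CPM with CRE. Replicate 1 of control cells was the lowest under both treatments, so the groups overlapped, but in each of 6 pairs of libraries with the same replicate number Krt8 was lower with CRE.

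Krt18, the type I partner of Krt8, had 1427, 1854 and 1734 CPM with PBS and 1146, 1398 and 1416 CPM with CRE in control cells. In knockout cells the values were 1709, 1692 and 1772 CPM and 1692, 1547 and 1655 CPM. The control groups did not overlap, while those of knockout cells met at 1692 CPM. The log2 fold change in control cells was -0.34 ± 0.11 (SE; edgeR unadjusted p = 0.00936, adjusted p = 0.335).

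Krt19, a type I keratin of simple epithelia, had 1693, 2152 and 2181 CPM with PBS and 1479, 1886 and 1964 CPM with CRE in control cells. Its values in knockout cells were 2128, 1885 and 2086 CPM and 2109, 1951 and 2074 CPM. Both pairs of groups overlapped. Krt7, the other type II keratin, had 2285, 2788 and 2958 CPM and 1902, 2278 and 2485 CPM in control cells, in the same order of treatments. In knockout cells it had 2555, 2729 and 2841 CPM with PBS and 2292, 2533 and 2512 CPM with CRE, without overlap. Its log2 fold change in control cells was -0.27 ± 0.12 (SE; edgeR unadjusted p = 0.043, adjusted p = 0.52).

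Lgals3, which encodes the sugar-binding protein galectin 3, showed the widest range of the members. It had 3078, 4242 and 3249 CPM with PBS and 2279, 2591 and 2221 CPM with CRE in control cells. In knockout cells it had 2431, 2615 and 2996 CPM with PBS and 1945, 2214 and 2457 CPM with CRE. All 3 control libraries with PBS lay above the other 9. The log2 fold change in control cells was -0.58 ± 0.14 (SE; edgeR unadjusted p = 0.00169, adjusted p = 0.179), and Lgals3 was the only member to meet the criterion of the study's methods there (a log2 fold change beyond 0.5 in either direction at an unadjusted limma p below 0.05). That criterion was met by 4.11% of the genes tested.

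Cldn4, a tight junction protein, had 1023, 1192 and 1157 CPM with PBS and 1028, 1308 and 1201 CPM with CRE in control cells. In knockout cells it had 1479, 1172 and 1319 CPM and 1612, 1478 and 1609 CPM. The second of these differences touched the threshold before adjustment (log2 fold change 0.24 ± 0.11 SE; edgeR unadjusted p = 0.0499, adjusted p = 0.77), and PBS replicate 1 (1479 CPM) lay just above CRE replicate 2 (1478 CPM). Sfn, the 14-3-3 protein stratifin and itself a p53 target, had 1126, 1376 and 1255 CPM with PBS and 1209, 1532 and 1385 CPM with CRE in control cells. Its values in knockout cells were 1150.3, 1092 and 1323 CPM and 1376, 1379 and 1646 CPM, and every CRE library lay above every PBS library (log2 fold change 0.30 ± 0.12 SE; edgeR unadjusted p = 0.0276, adjusted p = 0.696).

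Within the p53 axis, Mdm2 lay higher with CRE in both genotypes. Mdm2 had 179, 149 and 150.4 CPM with PBS and 223, 199 and 190.4 CPM with CRE in control cells (log2 fold change 0.36 ± 0.14 SE; edgeR unadjusted p = 0.0246, adjusted p = 0.433). In knockout cells it had 131, 124 and 155 CPM and 160.3, 161 and 219 CPM (log2 fold change 0.40 ± 0.14 SE; edgeR unadjusted p = 0.0143, adjusted p = 0.576). The groups did not overlap in either genotype.

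Cdkn1a had 1295, 1465 and 1347 CPM with PBS and 1416, 1618 and 1461 CPM with CRE in control cells. In knockout cells it had 898, 945 and 1273 CPM and 1011, 1171 and 1533 CPM, and replicate 3 was the highest under both treatments. Trp53 had 132, 132 and 123 CPM with PBS and 137, 138 and 136 CPM with CRE in control cells. Its values in knockout cells were 127, 135 and 114 CPM and 151, 132 and 151 CPM. The Trp53 groups of control cells did not overlap, but their means differed by a log2 fold change whose 95% interval ran from -0.08 to 0.25. In knockout cells they overlapped, with a log2 fold change of 0.21 ± 0.076 (SE; edgeR unadjusted p = 0.0198, adjusted p = 0.647).

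**Figure D1:**
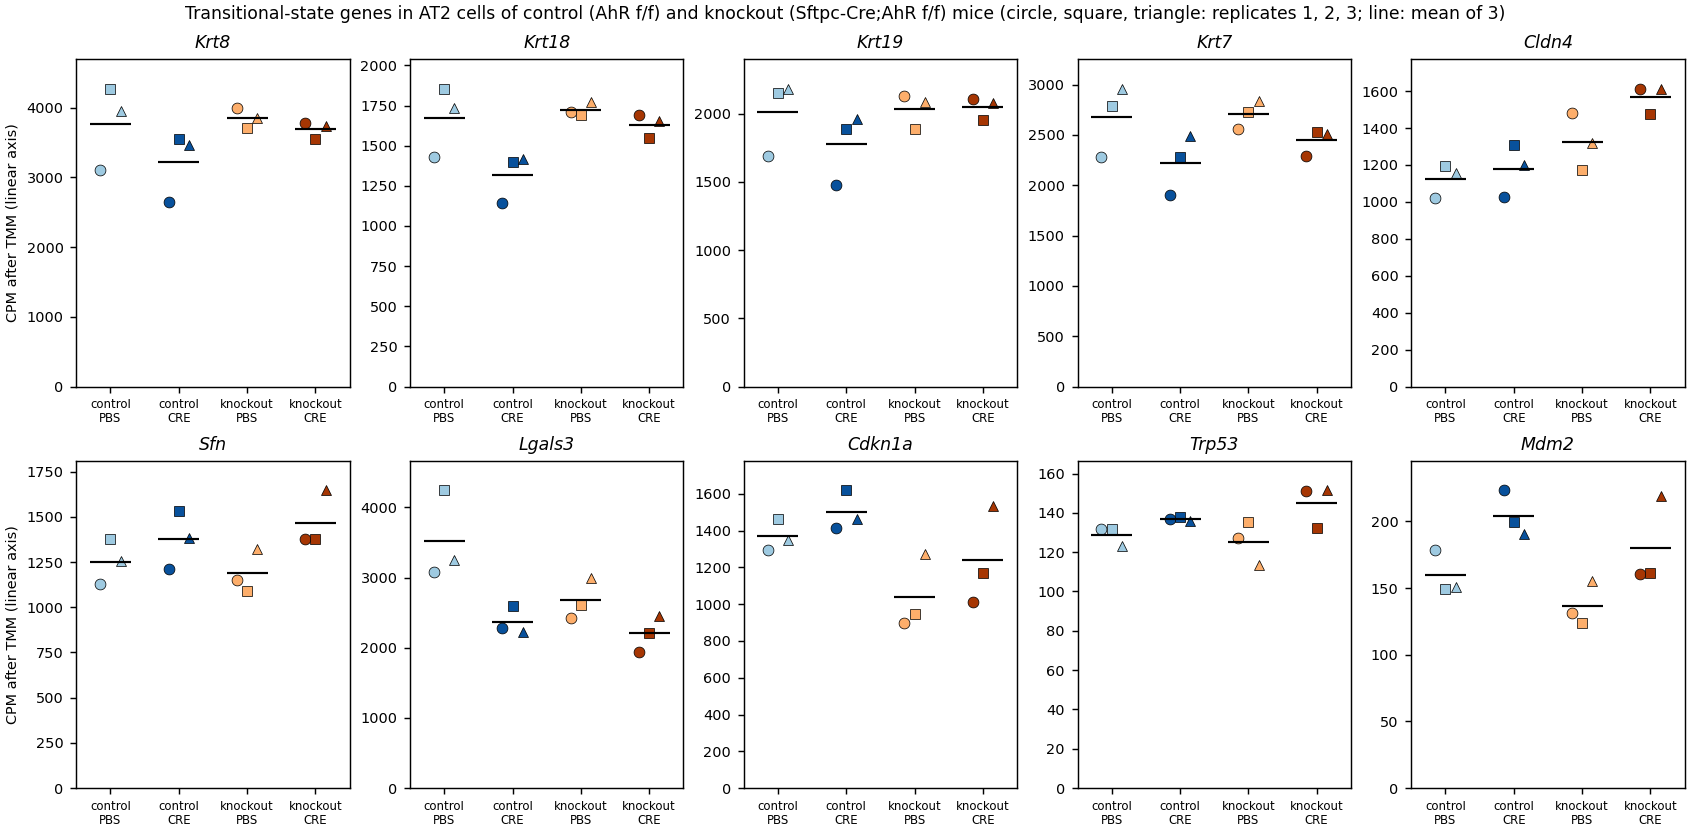
CPM after TMM scaling (vertical axes, linear, from 0) of the 10 genes in the 12 libraries, by genotype and treatment (horizontal axis); circles, squares and triangles are replicates 1, 2 and 3, and lines are means of 3. Lgals3 in the 3 control libraries with PBS (3078 to 4242 CPM) lies above the other 9, and Mdm2 with CRE lies above Mdm2 with PBS in each genotype.

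Counted over the members, no gene of the 10 passed the edgeR test at an adjusted p of 0.05 in control cells (background 0.233% of genes tested), in knockout cells (0.262%) or averaged over genotypes (1.1%). At an unadjusted p below 0.05 there were 4 members in control cells (background 9.36%, and 18.4% of genes with a mean of at least 100 CPM). Of these, Krt18, Krt7 and Lgals3 were lower and Mdm2 higher with CRE. In knockout cells there were also 4 (background 6.48%, and 13.2% of genes with at least 100 CPM). These were Cldn4, Sfn, Trp53 and Mdm2, all higher (background in that direction 3.77%). Groups did not overlap for 4 members in control cells (16.5% of genes tested) and for 3 in knockout cells (11.8%).

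Averaged over genotypes, 6 members had an unadjusted p below 0.05 (background 11.1%, and 22.8% among the 2277 genes with a mean of at least 100 CPM). Lgals3 was on the lower side (log2 fold change -0.43 ± 0.098 SE; edgeR unadjusted p = 0.00117, adjusted p = 0.078) and Mdm2 on the higher side (0.38 ± 0.096 SE; unadjusted p = 0.00256, edgeR adjusted p = 0.115). Krt18 (-0.21 ± 0.076, edgeR adjusted p = 0.31) and Krt7 (-0.21 ± 0.083, edgeR adjusted p = 0.367) were on the lower side. Sfn (0.22 ± 0.084, edgeR adjusted p = 0.345) and Trp53 (0.15 ± 0.054, edgeR adjusted p = 0.314) were on the higher side. An exact two-sided permutation test of each member's averaged difference, over the 400 ways to reassign treatment within genotypes, gave p = 0.005 for Mdm2, the smallest it can give. It gave p = 0.01 for Krt18, Lgals3 and Trp53 and p = 0.03 for Krt7 and Sfn by the same exact permutation test, all unadjusted among 20 such tests. In bulk libraries like these, fewer cells that express a gene and less of its RNA per cell cannot be told apart.

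**Figure D2:**
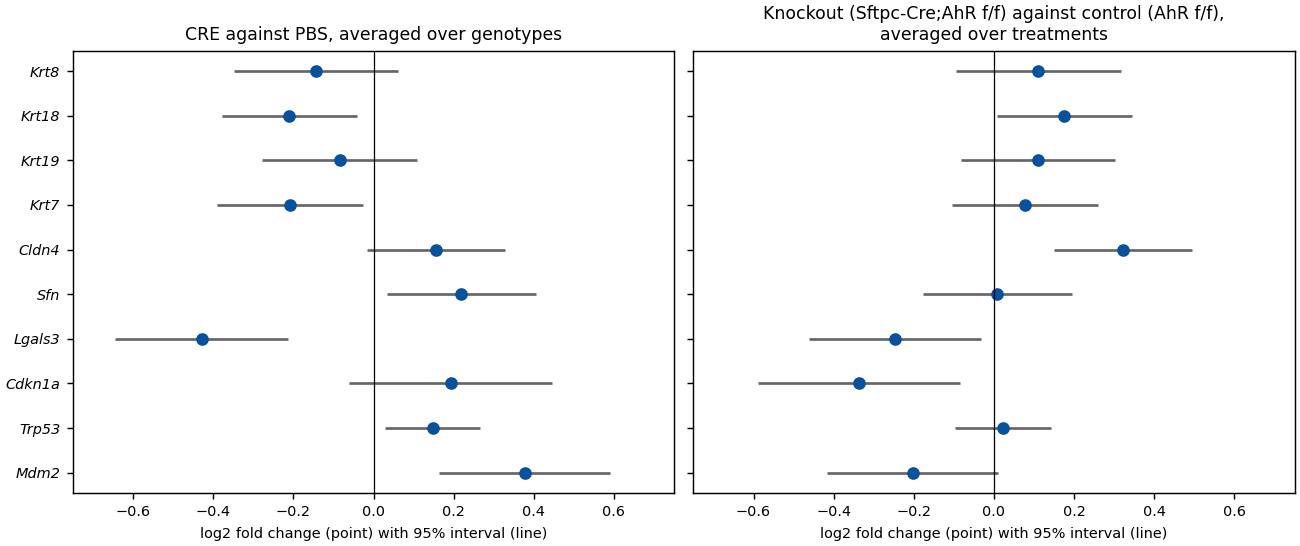
Log2 fold changes of the 10 genes (points) with 95% intervals from the edgeR fit (lines), for CRE against PBS averaged over genotypes (left) and for knockout against control cells averaged over treatments (right). With CRE, Lgals3 (-0.43) and Mdm2 (0.38) lie farthest from 0 on either side, and between genotypes Cdkn1a (-0.34) and Cldn4 (0.32).

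Libraries with the same replicate number deviated together between CRE and PBS, so they were treated as pairs, although the labels do not name pairs. The blocked fit changed the calls. With the pairs as blocks, 6 members passed the edgeR test at an adjusted p of 0.05 in control cells (background 3.63%, and 12.1% of genes with at least 100 CPM): Krt8, Krt18, Krt19, Krt7 and Lgals3 fell (1.76% of genes tested fell) and Mdm2 rose (1.87% rose) with CRE. In knockout cells 5 members passed (background 2.13%, and 8.34% of genes with at least 100 CPM), where Krt7 and Lgals3 fell (background 0.796%) and Sfn, Cdkn1a and Mdm2 rose (background 1.33%). The count in knockout cells rested on single pairs: it was 0 without knockout replicate 3, 1 (Sfn) without knockout replicate 2 and 4 without knockout replicate 1. In control cells 4 members, Krt8, Krt18, Krt7 and Lgals3, passed without any one control pair.

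Averaged over genotypes, 9 of 10 members passed in the blocked fit (background 6.59%, and 18.8% of genes with at least 100 CPM). Krt8, Krt18, Krt19, Krt7 and Lgals3 fell with CRE (background 3.11%) and Cldn4, Sfn, Cdkn1a and Mdm2 rose (background 3.47%), with edgeR adjusted p between 0.00118 and 0.0421. Without any one pair, 7 or 8 members passed, and Krt8, Krt18, Krt7, Sfn, Lgals3, Cdkn1a and Mdm2 were called each time. CRE over PBS within a pair was 0.611 to 0.847 for Lgals3, 0.754 to 0.990 for Krt18, 0.817 to 0.928 for Krt7 and 0.832 to 0.969 for Krt8. It was 1.22 to 1.41 for Mdm2, 1.07 to 1.26 for Sfn, 1.08 to 1.24 for Cdkn1a and 1.005 to 1.26 for Cldn4. Krt19, at 0.874 to 1.04, was lower in 5 of 6 pairs and Trp53, at 0.977 to 1.33, higher in 5 of 6. By an exact permutation test that flips the sign of each of the 6 pair differences, p was 0.0312, the smallest it can give, for Krt8, Krt18, Krt7, Cldn4, Sfn, Lgals3, Cdkn1a and Mdm2. By that exact test it was 0.0625 for Trp53 and 0.156 for Krt19.

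The members thus lay on opposite sides with CRE: the 4 keratins and Lgals3 were on the lower side, and the p53 axis genes with Sfn and Cldn4 on the higher side. Their median log2 fold change averaged over genotypes, 0.03, was near that of all tested genes, -0.0021.

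**Figure D3:**
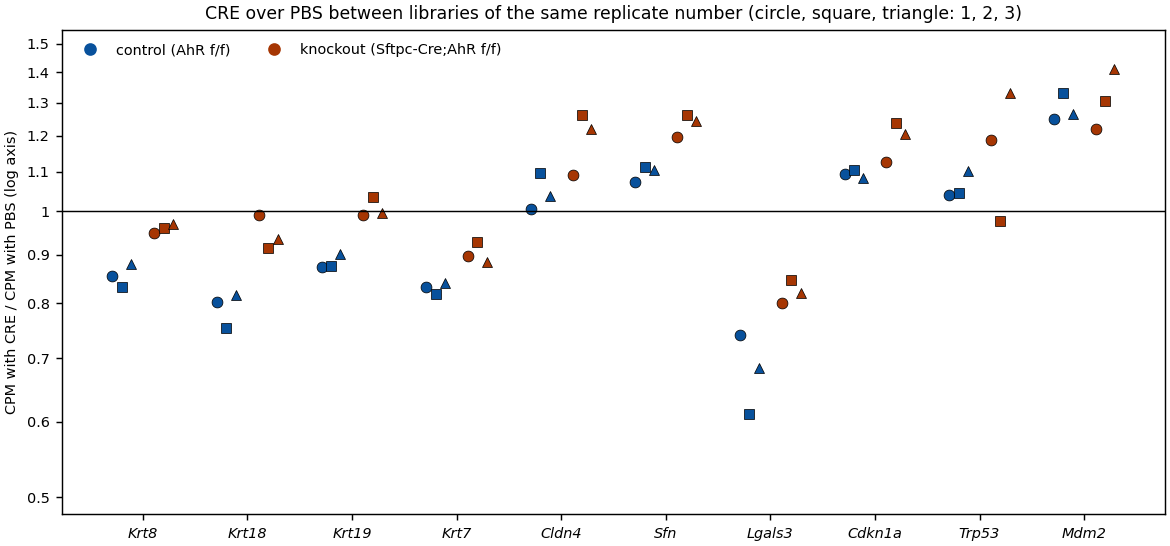
CPM with CRE divided by CPM with PBS (vertical axis, log scale) between libraries of the same replicate number for each gene (horizontal axis), in control (blue) and knockout cells (brown); circles, squares and triangles are numbers 1, 2 and 3. Lgals3 lies below 1 in 6 of 6 pairs (0.611 to 0.847) and Mdm2 above 1 in 6 of 6 (1.22 to 1.41).

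Whether the CRE effect differed between genotypes was tested as an interaction. All 10 members had a positive interaction, that is, a CRE effect shifted upward in knockout cells, from 0.04 for Mdm2 to 0.29 for Lgals3 on the log2 scale, where 50.8% of genes tested were positive. No member passed the edgeR test at an adjusted p of 0.05, with or without the pairs as blocks (background 0% in both), and none had an unadjusted p below 0.05 without them (background 3.7%). The narrowest 95% interval of an interaction, for Trp53, ran from -0.12 to 0.36. With the pairs, the 3 ratios of knockout cells all lay above the 3 of control cells for 7 members (background 9.53%): Krt8, Krt18, Krt19, Krt7, Sfn, Lgals3 and Cdkn1a. Krt8, for example, had ratios of 0.855, 0.832 and 0.879 in control cells and 0.948, 0.959 and 0.969 in knockout cells. In the blocked fit 8 members had an unadjusted p below 0.05 for the interaction (background 9.09%, and 4.8% on the positive side, where all 8 lay), and their edgeR adjusted p was at least 0.494. After group means were taken away, these 8 members also varied together over the 12 libraries (r = 0.186 to 0.973 between members). They thus do not count as independent observations.

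The genotypes were then compared to ask how the same genes differ between them. Control mice had no Cre, so effects of the loss of AhR and of Cre itself cannot be told apart here. With PBS, no member passed the edgeR test at an adjusted p of 0.05 (background 0.15%). An unadjusted p below 0.05 was found for 2 members, Lgals3 and Cdkn1a (background 8.37%, and 15.4% of genes with at least 100 CPM). Cdkn1a was lower in each knockout library with PBS than in each control library with PBS (log2 fold change -0.40 ± 0.16 SE, edgeR adjusted p = 0.538). Knockout replicate 3, at 1273 CPM, lay just below the lowest control library, at 1295 CPM, while replicates 1 and 2 had 898 and 945 CPM. Sftpc stood in the same order in these knockout libraries (3086, 4591 and 6183 CPM), and a link between them was not tested. Lgals3 was also lower without overlap (-0.39 ± 0.14 SE; edgeR adjusted p = 0.487). These were the only members without overlap, against 14% of genes tested.

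With CRE, no member passed either (background 0.17%). Krt18 and Cldn4 had an unadjusted p below 0.05 (background 5.95%, and 8.48% of genes with at least 100 CPM). Cldn4 lay higher in all 3 knockout libraries with CRE than in all 3 control libraries with CRE (log2 fold change 0.41 ± 0.11 SE; edgeR unadjusted p = 0.00359, adjusted p = 0.438). Krt18 was likewise higher without overlap (0.31 ± 0.11 SE; edgeR adjusted p = 0.752), and no other member was without overlap, against 11% of genes tested.

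Averaged over treatments, no member passed the edgeR test (background 0.631%), and 4 had an unadjusted p below 0.05 (background 9.93%, and 15.6% of genes with at least 100 CPM). Cldn4 (0.32 ± 0.078 SE, edgeR adjusted p = 0.138) and Krt18 (0.18 ± 0.076 SE, edgeR adjusted p = 0.475) were on the higher side in knockout cells. Cdkn1a (-0.34 ± 0.11 SE, edgeR adjusted p = 0.327) and Lgals3 (-0.25 ± 0.097 SE, edgeR adjusted p = 0.414) were on the lower side. With CRE, knockout replicate 3 had 1533 CPM of Cdkn1a, inside the control range of 1416 to 1618 CPM. The exact permutation test over the 400 ways to reassign genotype within treatments gave p = 0.01 for Cldn4, 0.03 for Cdkn1a, 0.04 for Lgals3 and 0.06 for Krt18. Mdm2 reached p = 0.07 in that exact permutation test. In the blocked fit, too, no member passed (background 0.315%). Its blocks join control and knockout libraries by replicate number alone, which does not establish pairs between genotypes. This limit holds for every blocked genotype result below.

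Promoters are shown for the p53 axis genes, whose CRE responses share a direction, and for the members that differed most between genotypes or with CRE. RefSeq start sites (GRCm38.p6) gave the 250 bases before the start for 9 of the 10 members, Krt19 not among them. Bases that an exon of the gene covers at their 3′ end were left off the printed sequences but kept in the motif counts. In the first 3 sequences, capitals mark matches to the p53 consensus decamer.
Cdkn1a, chr17:29090729-29090975, plus strand: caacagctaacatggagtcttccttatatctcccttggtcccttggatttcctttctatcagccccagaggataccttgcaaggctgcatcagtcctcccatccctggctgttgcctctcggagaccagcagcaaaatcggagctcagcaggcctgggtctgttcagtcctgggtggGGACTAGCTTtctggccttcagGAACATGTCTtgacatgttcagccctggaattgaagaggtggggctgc
Mdm2, chr10:117710759-117711008, minus strand: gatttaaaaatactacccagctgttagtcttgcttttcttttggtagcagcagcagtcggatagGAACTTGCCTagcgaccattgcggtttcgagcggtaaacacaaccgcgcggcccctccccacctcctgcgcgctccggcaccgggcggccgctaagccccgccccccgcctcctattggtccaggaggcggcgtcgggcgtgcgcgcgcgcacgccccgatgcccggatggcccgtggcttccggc
Trp53, chr11:69580109-69580358, plus strand: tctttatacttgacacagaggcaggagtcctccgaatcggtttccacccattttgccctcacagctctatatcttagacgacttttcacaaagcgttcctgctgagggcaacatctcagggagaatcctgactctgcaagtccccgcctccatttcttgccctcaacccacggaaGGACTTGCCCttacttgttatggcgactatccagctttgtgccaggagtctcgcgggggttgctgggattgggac
The decamer was found in these 3 of the 9 genes, with 2 matches before Cdkn1a, and in 7.18% of 27025 mouse promoters of that length. Trp53 itself is listed here because it encodes the factor.

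In the next 3 sequences, capitals mark the AhR core motif GCGTG on either strand.
Krt18, chr15:102027966-102028179, plus strand: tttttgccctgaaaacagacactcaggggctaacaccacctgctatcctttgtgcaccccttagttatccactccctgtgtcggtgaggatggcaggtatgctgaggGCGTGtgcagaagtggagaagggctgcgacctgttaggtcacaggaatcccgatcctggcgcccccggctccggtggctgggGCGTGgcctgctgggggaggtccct
Cldn4, chr5:134946935-134947184, minus strand: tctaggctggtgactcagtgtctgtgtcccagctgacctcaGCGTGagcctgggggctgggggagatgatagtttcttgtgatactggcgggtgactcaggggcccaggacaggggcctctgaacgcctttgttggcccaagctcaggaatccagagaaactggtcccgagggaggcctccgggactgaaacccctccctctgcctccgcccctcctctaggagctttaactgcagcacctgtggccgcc
Lgals3, chr14:47373610-47373812, plus strand: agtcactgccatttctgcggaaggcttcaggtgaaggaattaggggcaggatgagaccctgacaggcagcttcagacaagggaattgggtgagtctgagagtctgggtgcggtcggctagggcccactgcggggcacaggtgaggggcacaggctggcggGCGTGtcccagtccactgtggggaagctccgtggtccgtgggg
GCGTG was found before 5 of the 9 genes, these 3, Mdm2 and a second start of Cdkn1a, and in 28.2% of all promoters. The shares of all promoters took the first listed start of each gene, where Cdkn1a had no GCGTG, while members counted at any start. The RefSeq start of Lgals3 lies inside the gene as GENCODE draws it (chr14:47367751-47386160, plus strand). The AP-1 motif TGANTCA was found before Cldn4 alone, with 2 matches, and in 6.87% of all promoters. The Sp1 box GGGCGG lay before 5 of the 9 genes and in 32.9% of all promoters, and TATAAA before 1 and in 13%. Overlap among the motifs was not removed, and a match says only that these letters are present.

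Over the 12 libraries, the tested genes whose log2 CPM followed Krt8 most closely by Pearson correlation were Echdc3 (r = 0.963), Krt19 (0.959), Cldn7 (0.957), Upk3bl (0.944) and Krt18 (0.939). For Cdkn1a they were Ranbp9 (r = 0.959), Ndrg1 (0.943), Sytl2 (0.939), Slc35e4 (0.938) and Wipi2 (0.932). These values describe 12 libraries, of which those with one number deviated together, and were picked as the highest of 20612 genes. After group means were taken away, the 4 keratins still varied together (r = 0.772 to 0.973 between members), as did Cdkn1a with Sfn (0.816) and with Lgals3 (0.807). Krt8 and Cdkn1a had r = 0.230 on the same scale.

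Other genes of the same pathways were counted from lists. As background for every list, edgeR averaged over genotypes called 0.864% of all genes higher with CRE and 0.233% lower, and the blocked fit 3.47% and 3.11%. Averaged over treatments, edgeR called 0.194% of all genes higher and 0.437% lower in knockout cells, and the blocked fit 0.0922% and 0.223%. Of 24 other p53 targets, 21 had a higher level with CRE averaged over genotypes, 12 of them at an unadjusted p below 0.05 and none lower (over all genes 11.1% in either direction, and 22.8% of genes with at least 100 CPM). By edgeR, 3 of the 24 rose: Plk2, a polo-like kinase (log2 fold change 0.69 ± 0.10 SE, adjusted p = 0.0103), Tnfrsf10b, a death receptor (0.40 ± 0.067, adjusted p = 0.0174) and Fas, another death receptor (0.79 ± 0.16, adjusted p = 0.0489). With the pairs as blocks, 9 rose and none fell, where 3.47% of all genes rose and 18.8% of genes with at least 100 CPM changed. The median over the list was 0.20, against -0.0021 for all tested genes. Of 10 regulators of p53, 8 were on the higher side and none passed. Between genotypes, averaged over treatments, 21 of the 24 p53 targets were on the lower side in knockout cells (median log2 fold change -0.10) and 1 passed, the antiproliferation factor Btg2 (-0.31 ± 0.052 SE, edgeR adjusted p = 0.0276). Btg2 did not pass in the blocked fit (edgeR adjusted p = 0.119), whose pairs between genotypes are not established.

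Of 20 other genes of the transitional state, 8 were higher and 12 lower with CRE, so this list, like the members, did not move one way. By edgeR, Tnip3, an inhibitor of NF-κB signalling (1.05 ± 0.11 SE, adjusted p = 9.83e-04), and Plaur, the urokinase receptor (0.35 ± 0.051 SE, adjusted p = 0.0088), rose, and none fell. With the pairs as blocks 5 rose (background 3.47%) and 7 fell (3.11%), where 18.8% of genes with at least 100 CPM changed. Tnip3 also rose in each genotype alone, by 1.05 ± 0.16 (SE, edgeR adjusted p = 0.0245) in control and 1.06 ± 0.16 (adjusted p = 0.0205) in knockout cells. Between genotypes no gene of this list passed.

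Markers of AT1 cells, the fate to which the state leads, were on the lower side with CRE in 13 of 14 cases (median -0.38). Rtkn2 (-1.28 ± 0.25 SE, edgeR adjusted p = 0.0404), Ager, the receptor for advanced glycation end products (-0.83 ± 0.17, edgeR adjusted p = 0.0472), and the chloride channel protein Clic5 (-0.45 ± 0.082, edgeR adjusted p = 0.0291) fell. With the pairs as blocks 8 of the 14 fell, where 3.11% of all genes fell and 18.8% of genes with at least 100 CPM changed. Of 14 AT2 markers, 10 were lower (median -0.07) and 1 fell, the transcription factor Etv5 (-0.47 ± 0.079, edgeR adjusted p = 0.0185). In the blocked fit 4 AT2 markers fell, Sftpc among them, and 2 rose. Between genotypes 12 of 14 AT1 markers were on the higher side, of which Col4a3, a basement membrane collagen, passed (1.00 ± 0.17, edgeR adjusted p = 0.0246), and 12 of 14 AT2 markers were on the lower side with none passing.

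Among 12 other keratins tested, 8 were higher with CRE and none passed without pairing. With the pairs as blocks 3 of them rose, Krt5, Krt6a and Krt76, each at group means of at most 3.48 FPKM, and none fell. Apart from Krt23 and Krt80, with medians of 82.6 and 49.9 FPKM over the libraries, each of the 12 had a median of at most 6.26 FPKM. All 12 were lower in knockout cells averaged over treatments (median -0.47). Of these, Krt76 passed (-1.47 ± 0.24 SE, edgeR adjusted p = 0.0208), at group means of 0.237 to 1.29 FPKM, but not in the blocked fit (edgeR adjusted p = 0.0848). The 4 member keratins, by contrast, had genotype differences of 0.08 to 0.18 on the log2 scale, and both sets were not tested against each other. In the related families, none of 6 other CDK inhibitors, 6 other 14-3-3 proteins or 8 other galectins passed the edgeR test without pairing, with CRE or between genotypes averaged over treatments. In the blocked fit 1 galectin, Lgals1, fell with CRE. Of 10 AhR targets tested, all were higher with CRE and 2 rose, Nqo1 (0.62 ± 0.091 SE, edgeR adjusted p = 0.0088) and Nfe2l2 (0.38 ± 0.073, edgeR adjusted p = 0.036), while all 10 were lower in knockout cells and 7 passed. The blocked fit called 4 higher with CRE and 6 lower in knockout cells.

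Markers of other cell types were read beside these results. With CRE, all 7 club cell markers (median -0.10) and all 6 mesothelial markers tested (median -0.51) were on the lower side, and none passed the edgeR test. The pairs as blocks gave 1 club cell marker, Scgb1a1, and 4 mesothelial markers that fell. Leukocyte, fibroblast and endothelial markers were on the lower side in 6 of 10, 7 of 8 and 5 of 7 cases, with 3, 3 and 1 falling in the blocked fit. Basal cell markers were higher in 3 of 5, with 1, Krt5, rising in the blocked fit. Between genotypes 7 of 8 ciliated cell markers were higher in knockout cells (median 0.50) with an unadjusted p below 0.05, against 9.93% of all genes in either direction, and none passed the adjusted test. Whether these cells had a part in the lower keratins and Lgals3 was not tested.

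**Figure D4:**
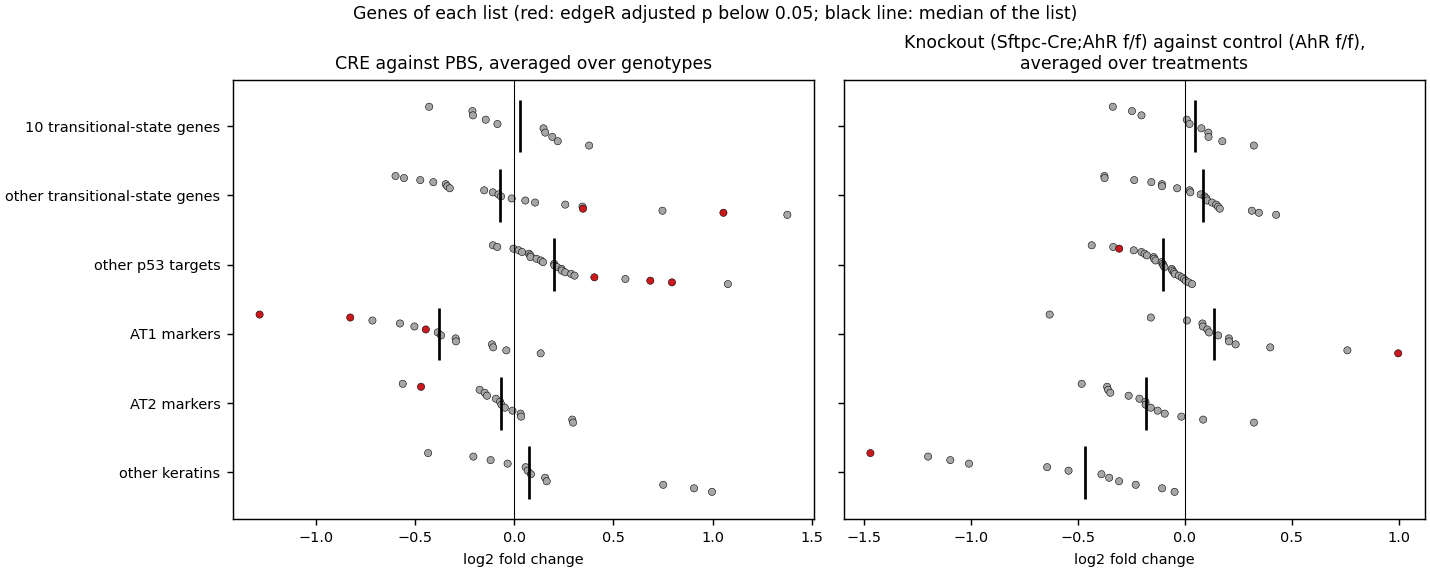
Log2 fold changes (horizontal axes) of the genes of 6 lists (rows; points are genes, black lines medians, red points passed edgeR at an adjusted p of 0.05) for CRE against PBS averaged over genotypes (left) and knockout against control cells averaged over treatments (right). The other p53 targets have a median of 0.20 with CRE and -0.10 between genotypes, and the AT1 markers -0.38 and 0.13.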

How the data were processed

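Gene expression was measured by stranded mRNA sequencing of 12 AT2 libraries. The authors aligned reads with STAR 2.7.2b to GRCm38, annotated them with Partek and RefSeq, and took gene counts with Salmon, and the deposited counts are whole numbers without normalization. How strand was used is not given in the sources used here. All 55450 gene IDs are Ensembl IDs found in GENCODE M21, not RefSeq IDs, so which annotation made the counts is uncertain. The deposited FPKM values were made by the authors from the counts and serve only for levels between genes.

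Groups were taken from the labels. Counts were normalized by TMM and filtered with filterByExpr (minimum count 10), both in edgeR 4.0.16 under R 4.3.3, and 7 contrasts of 1 fit of 4 group means to all 12 libraries were tested with the quasi-likelihood test and Benjamini-Hochberg adjustment over 20612 genes. This and the blocked fit were run on simulated counts. Those counts held no effect shared by a pair, so they cannot show how the blocked fit behaves on paired libraries. The criterion of the study's methods used limma-trend (limma 3.58.1) and log2 CPM, prior count 2. DESeq2 1.42.0, other scalings and filters, and leaving out each library were alternatives, whose effect the closing section gives.

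Replicate numbers were checked for pairing through the correlation, between libraries, of departures from their group's mean over 11476 genes with a mean of at least 5 CPM. Same-numbered CRE and PBS libraries had correlations of 0.727, 0.395 and 0.629 in control and of 0.592, 0.527 and 0.337 in knockout cells. For the genotypes the correlations were 0.383, 0.130 and 0.120 with PBS and 0.364, -0.0362 and 0.0700 with CRE. Libraries of unlike number reached 0.206 with PBS and 0.360 with CRE. Replicate numbers thus do not establish pairs between genotypes under either treatment. In the blocked fit, pairs lay within genotype for CRE effects and within treatment for genotype effects.

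The members and the 17 gene lists were chosen with earlier results of these data known. A fold change is printed for a member with an unadjusted edgeR p below 0.05 or meeting the study's criterion. List genes named with a fold change are those called by edgeR, at most 4 per list and contrast, by smallest adjusted p, and Scgb1a1, Scgb3a2, Lgals1, Krt5 and Krt6a were named after their values were seen. Markers, motifs and promoters are descriptions.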

Additional observations from a re-analysis of the deposited data

How the results depend on the processing

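No direction of a member's printed fold change turned under any alternative tried, and without any one library no member passed the edgeR test in any of the 7 contrasts (0 to 0 members called). With the replicate block, 6, 5 and 9 members passed for CRE in control cells, in knockout cells and averaged; it changed no member's call between genotypes or for the interaction. DESeq2 called 1 member for CRE in control cells (Lgals3), 2 averaged (Lgals3, Mdm2) and 1 between genotypes averaged (Cldn4). Library size alone and the filter of 1 CPM in 3 libraries each called 1 for CRE averaged (Lgals3, adjusted p = 0.0347 and 0.0468), and the study's criterion 1 for CRE in control cells.

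Genes called, of 20612, were 48 for CRE in control cells (848 by the study's criterion, 414 by DESeq2, 748 with the replicate block, 19 to 47 without one library) and 54 in knockout cells (696, 255, 439, 23 to 62, and 13 with only the 6 libraries compared). They were 31 between genotypes with PBS (846, 234, 15, 15 to 26, and 15 with only those 6 libraries) and 35 with CRE (705, 171, 22, 21 to 30). Averaged, they were 226 for CRE (828, 743, 1358, 125 to 219) and 130 for genotype (847, 522, 65, 78 to 110). For the interaction 0 genes passed in edgeR (3.7% at an unadjusted p below 0.05), 475 met the study's criterion, DESeq2 called 23, and 0 to 2 passed without one library.

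The exact permutation p for CRE averaged moved with pairs (a setting chosen after seeing the data) to 0.03125 for Krt8, Cldn4 and Cdkn1a and to 0.0625 for Trp53, and that between genotypes for Krt18 to 0.03 with library size alone. Leaving out each pair from the blocked fit was also chosen after seeing the data. Causes of these shifts were not tested. With 3 libraries a group, 95% intervals of the members' single contrasts reached from -0.88 to 0.70 on the log2 scale without pairing.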
